A study of Mus musculus with 24 samples.

Results

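Macrophages of the dura mater, the outermost membrane around the brain, were set against macrophages of the diaphragm, the muscle that drives breathing, at a matched state in which MHC class II genes were high and Ccr2 was low. The comparison held 3 dural libraries, those whose columns carry the mark P5, and 2 diaphragm libraries, those numbered 2 and 8, so 5 of the 16 libraries of the series. On the dural side the members were found by the column names. On the diaphragm side libraries 2 and 8 were chosen from measured values, because their MHC class II and Ccr2 levels lay nearest to those of dura P5. All animals were C57BL/6 mice of wild type genotype, 17 weeks old and at steady state. The labels' protocol, which is written for the dura, gives perfusion with saline before the macrophages were sorted in bulk by flow cytometry. Although the series title mentions RAG-1 deficient mice given T cells, the samples are labelled wild type and no transfer is recorded for them. The labels also name 3 subsets in each tissue, C1, C2 and C3, but no column name matches a subset, so the marks P5, 2 and 8 were not translated into subsets.

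Macrophages of border tissues fall along a range from long-lived resident cells, which often carry the receptors LYVE1, TIMD4 and FOLR2, to cells renewed from blood monocytes, which enter through the chemokine receptor CCR2. MHC class II molecules present peptides to helper T cells and mark the macrophages of a tissue that can do so. MARCO is a scavenger receptor for bacteria and particles, TIMD4 binds phosphatidylserine on dying cells, CD207 (langerin) is a lectin known from Langerhans cells of the skin, and HMOX1 (heme oxygenase) degrades heme.

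Levels are given as CPM, which are counts scaled to the size of each library. They compare libraries for a gene and not genes with each other. The dural P5 libraries held 11631455, 12538129 and 24077834 counts and diaphragm libraries 2 and 8 held 23498989 and 23034792, within the range of 10457920 to 30132295 over the 16 libraries. Replicates lay close together. Among 6437 genes of at least 20 CPM, between 34 and 64 genes differed by more than 2-fold between 2 dural P5 libraries (0.528% to 0.994%) and 35 between diaphragm 2 and 8 (0.544%), against 503 to 678 (7.81% to 10.5%) between a dural and a diaphragm library. Nothing in the labels says that the libraries came from separate animals, and diaphragm libraries picked for being alike can understate the spread, so the p-values below measure only the spread between these 5 libraries.

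The genes that set the match are described without a test. MHC class II genes and Ciita, the master activator of this group, summed to 54200, 53400 and 50900 CPM in dura P5, against 44700 and 42700 CPM in diaphragm 2 and 8. The other libraries lay on both sides of this level, at 5430 to 6340 CPM in dura P4, 81500 to 85700 CPM in dura P6, 1880 to 2230 CPM in diaphragm 1 and 7, and 85200 to 90700 CPM in diaphragm 3, 6 and 9. Ccr2 stood at 281, 278 and 254 CPM in dura P5 against 127 and 128 CPM in diaphragm 2 and 8. Both were below the 1485 to 1631 CPM of dura P6 and the 801, 1026 and 1023 CPM of diaphragm 3, 9 and 6, and above the 19 and 23.2 CPM of diaphragm 1 and 7. The description of both sides as MHC class II-positive with low Ccr2 restates how the diaphragm libraries were chosen and is not a result. Even so, Ccr2 in each dural P5 library was above that in diaphragm 2 and 8. Within the class II group, H2-Aa, the alpha chain of I-A, had 11320, 10430 and 9867 CPM in dura P5, compared with 8172 and 7203 CPM in diaphragm 2 and 8. Cd74, the invariant chain, had 20330, 20460 and 19670 CPM in dura P5 and 18430 and 17940 CPM in diaphragm 2 and 8, and H2-DMb2, a chain of the peptide exchanger H2-M, had 10.9, 9.69 and 9.95 CPM in dura P5 against 30.2 and 23.5 CPM in diaphragm 2 and 8.

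**Figure D1:**
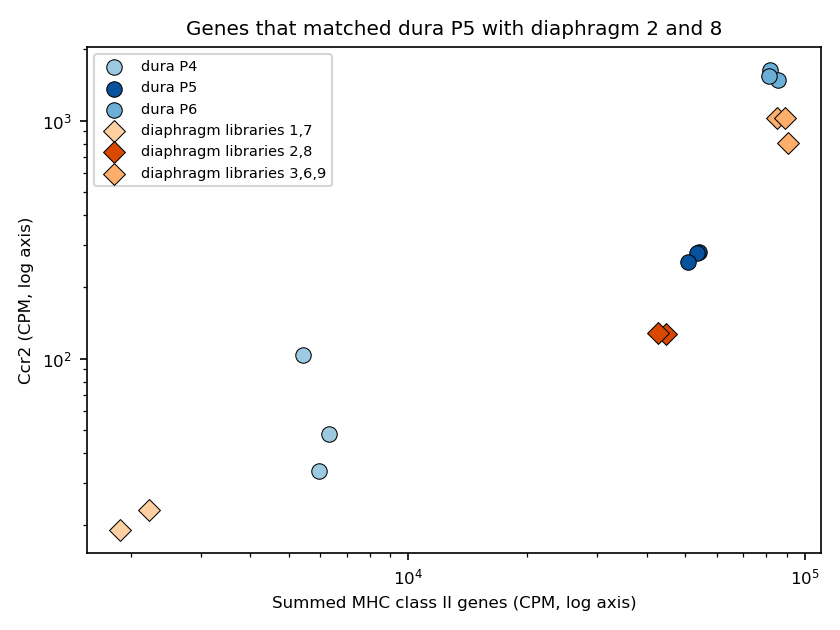
Summed MHC class II genes against Ccr2 in each of the 16 libraries, both in CPM on log axes, with dural libraries as circles and diaphragm libraries as diamonds. The 3 dura P5 libraries (50900 to 54200 CPM of class II) and diaphragm 2 and 8 (42700 and 44700 CPM) lie next to each other between the low and the high sets of both tissues.

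Macrophage-defining genes were high on both sides. The 15 macrophage-defining genes, all tested, summed to 35700 to 36800 CPM in dura P5 and 41200 to 41600 CPM in diaphragm 2 and 8. Csf1r, the receptor for the macrophage growth factor CSF1, had 4960, 5848 and 6560 CPM in dura P5, compared with 4880 and 4980 CPM in diaphragm 2 and 8, and did not pass the test (log2 fold change 0.23, SE 0.12, edgeR adjusted p = 0.187). Adgre1, which encodes F4/80, had 1763, 2009 and 2170 CPM in dura P5 and 1827 and 1607 CPM in diaphragm 2 and 8. Adgre1 did not pass either (log2 fold change 0.21, SE 0.11, edgeR adjusted p = 0.234). Among the members 1 rose in dura P5, Fcgr1, the high-affinity IgG receptor CD64, with 425, 414 and 429 CPM in dura P5 against 286 and 244 CPM in diaphragm 2 and 8 (log2 fold change 0.68, SE 0.11, edgeR adjusted p = 0.00189), and 5 fell. The 5 rested on single libraries, since 1 fell without dural library 3P5, without diaphragm 2 or without diaphragm 8, and 3 without 4P5, while 3 rose without 1P5. Among the 5, Cd14, the co-receptor for lipopolysaccharide, had 1607, 2248 and 1883 CPM in dura P5, compared with 3193 and 2645 CPM in diaphragm 2 and 8 (log2 fold change -0.61, SE 0.14, edgeR adjusted p = 0.0121). Its call was lost against all 7 diaphragm libraries (edgeR adjusted p = 0.139) and without diaphragm 2 (edgeR adjusted p = 0.107).

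Between the matched libraries, 3224 of 14159 tested genes (22.8%) passed an adjusted p of 0.05. Of these, 1434 (10.1%) were higher in dura P5 and 1790 (12.6%) were lower. The number of higher genes rested partly on single libraries, since it was 834 without dural library 3P5 and 915 without diaphragm 2. At least a 2-fold difference was reached by 672 of the higher and 1091 of the lower genes, while the median over all tested genes was 0.02 on the log2 scale. These shares are the background for every gene list below. Set against all 7 diaphragm libraries, which needs no choice by measured values, dura P5 differed in 1627 of 14766 genes. Of these, 681 were higher (4.61%) and 946 lower (6.41%). Among the 1627, 1401 were also called against diaphragm 2 and 8, which is 86.1% of the wider list and 43.5% of the matched list, and 0 had the opposite sign. Among all tested genes, the dural P5 libraries lay above each of the 7 diaphragm libraries in 10.2% and below each in 8.76%, which is the background for statements on all 7 libraries. On GRCm38, by the GENCODE annotation, Marco lies at chr1:120474538-120505024, Timd4 at chr11:46810800-46844332, Cd207 at chr6:83671215-83677857 and Hmox1 at chr8:75093621-75100589.

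The named markers lay lower in dura P5 throughout and are given as values, since they were proposed with the contrast known. Marco was close to absent from dura P5, with 2.14, 0.32 and 0.919 CPM in dura P5 and 443 and 406 CPM in diaphragm 2 and 8. Timd4 had 30.4, 40.3 and 47 CPM in dura P5 against 553 and 591 CPM in diaphragm 2 and 8, and Cd207 had 0 counts in all 3 dural P5 libraries, against 149.3 and 253.9 CPM in diaphragm 2 and 8. With 3 counts over the group as the limit that a count of 0 allows, Cd207 was at least 3240-fold lower in dura P5. Hmox1 had 322, 407 and 365 CPM in dura P5, compared with 1550 and 1451 CPM in diaphragm 2 and 8. Across the other diaphragm libraries the 4 genes did not move as a block. Marco had 148 and 376 CPM in diaphragm 1 and 7 but 1.12, 1.77 and 1.59 CPM in diaphragm 3, 9 and 6. Timd4 likewise had 336 and 452 CPM in 1 and 7 and 40, 50.8 and 53.3 CPM in 3, 9 and 6, which is close to dura P5. Cd207 and Hmox1, by contrast, were above every dural P5 library in all 7 diaphragm libraries, with Hmox1 at 1316 and 1137 CPM in 1 and 7 and 646, 553 and 629 CPM in 3, 9 and 6.

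Genes known from Kupffer cells, the macrophages of liver sinusoids, were high in diaphragm 2 and 8. Clec4f, a lectin whose expression in mice is known from Kupffer cells, had 0.0855, 0.16 and 0 CPM in dura P5 and 3182 and 3298 CPM in diaphragm 2 and 8. Only 3 Clec4f counts were found over the dural P5 libraries against 142164 over the diaphragm ones, a ratio of 52000 with a counting interval of 17800 to 252000. Cd5l, a secreted inhibitor of macrophage apoptosis, had 2.82, 1.84 and 1.34 CPM in dura P5 against 3686 and 3145 CPM in diaphragm 2 and 8 (log2 fold change -10.82, SE 0.23, edgeR adjusted p = 4.8e-09). Vsig4, the complement receptor CRIg, had 0.684, 1.52 and 2.05 CPM in dura P5, compared with 1043 and 993 CPM in diaphragm 2 and 8 (log2 fold change -9.37, SE 0.25, edgeR adjusted p = 1.31e-08). Fcna, a soluble pattern-recognition lectin, had 20.7, 28 and 34.2 CPM in dura P5 and 1299 and 1695 CPM in diaphragm 2 and 8 (log2 fold change -5.75, SE 0.21, edgeR adjusted p = 1.17e-07). In these genes diaphragm 2 and 8 stood far above dura P5 with no overlap. Nr1h3, which encodes the nuclear receptor LXR-alpha and helps to set Kupffer cell identity, had 12.8, 14.1 and 9.65 CPM in dura P5 against 282 and 293 CPM in diaphragm 2 and 8 (log2 fold change -4.58, SE 0.17, edgeR adjusted p = 1.17e-07). Id3, an inhibitor of helix-loop-helix factors also tied to Kupffer cell development, had 53.8, 64.9 and 46 CPM in dura P5, compared with 470.5 and 522 CPM in diaphragm 2 and 8 (log2 fold change -3.18, SE 0.15, edgeR adjusted p = 5.39e-07). Apoc1, an apolipoprotein made by macrophages and hepatocytes, had 0.769, 0.24 and 0.711 CPM in dura P5 and 293 and 303 CPM in diaphragm 2 and 8 (log2 fold change -8.94, SE 0.23, edgeR adjusted p = 1.3e-08).

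The 16 genes of this kind, gathered after their values had been seen and therefore not tested as a list, include Marco, Timd4 and Cd207. All 16 lay lower in dura P5 with no overlap between the sides, and their median was -5.12 on the log2 scale. Over all tested genes 51.8% did not overlap, 25.8% lower in dura P5 and 25.9% higher. Their summed level was 849 to 1020 CPM in dura P5 and 14800 to 15200 CPM in diaphragm 2 and 8. It was 4740 to 7610 CPM in diaphragm 1 and 7 and 535 to 707 CPM in diaphragm 3, 6 and 9. Clec4f followed the same order, with 401 and 1005 CPM in 1 and 7 and 1.97, 0.181 and 1.4 CPM in 3, 9 and 6. By their sum the Kupffer-type genes were therefore high in 4 of 7 diaphragm libraries and not in the other 3. Not every member followed the sum. Cd207 had 13.7 and 39 CPM in 1 and 7 against 12.4, 48.5 and 33.8 CPM in 3, 9 and 6. Spic had 19.7 and 24.6 CPM in 1 and 7, below the 33.3, 36.7 and 35.7 CPM of dura P5. Against all 7 libraries the calls of Clec4f, Cd5l and Fcna were lost, while Vsig4, Nr1h3, Id3 and Apoc1 kept theirs.

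**Figure D2:**
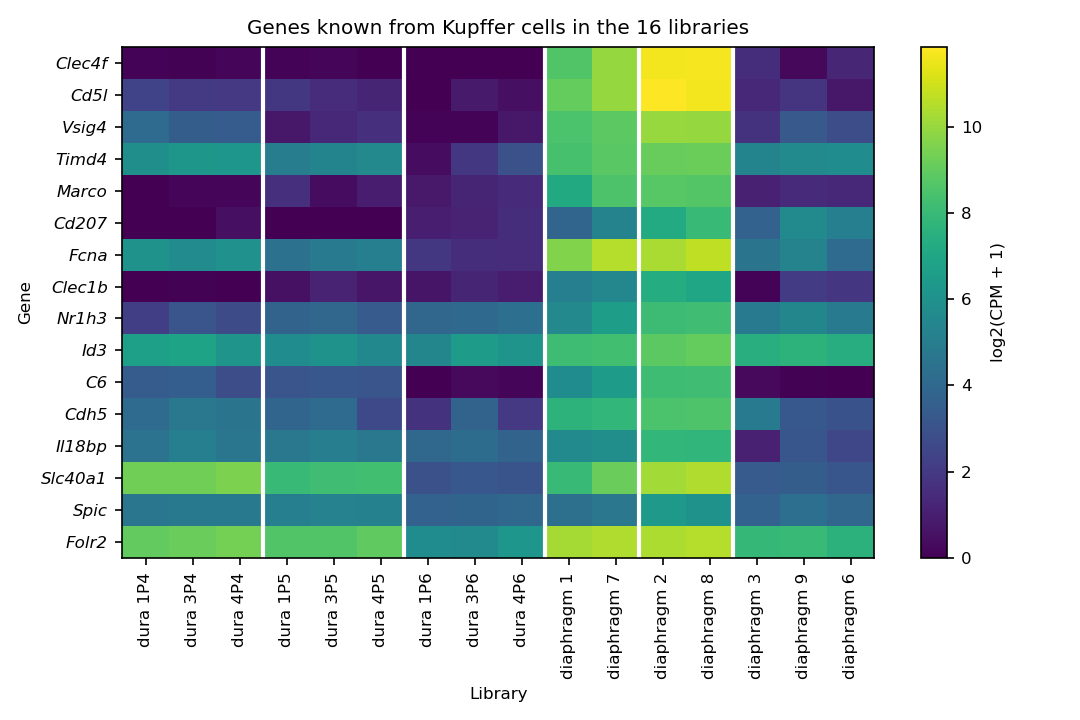
Levels of 16 genes known from Kupffer cells (rows) in the 16 libraries (columns, white lines between sets), as log2(CPM + 1). Diaphragm 2 and 8 are the brightest columns, diaphragm 1 and 7 are intermediate, and diaphragm 3, 9 and 6 resemble the dural libraries for most genes.

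Transcripts of hepatocytes were measured beside these genes. Alb, which encodes serum albumin, had 0 counts in dura P5 and 280.1 and 518 CPM in diaphragm 2 and 8, at least 6400-fold lower in dura P5. Ahsg, a further secreted liver protein, also had 0 counts in dura P5, against 25.4 and 38.6 CPM in diaphragm 2 and 8, at least 514-fold lower in dura P5. Of 12 liver plasma protein genes, 11 were called lower and Ttr was not (without 3P5 1 gene was higher), with 24.8, 8.49 and 264 CPM in dura P5 against 8.37 and 22.8 CPM in diaphragm 2 and 8. Several of the 12, Alb and Ahsg among them, had 0 counts in dura P5 and could enter the test only through the diaphragm side. The liver transcripts did not follow the Kupffer-type genes across the diaphragm libraries. The list summed to 409 and 743 CPM in diaphragm 2 and 8, 379 and 757 CPM in 1 and 7, and 260, 711 and 399 CPM in 3, 9 and 6. These sums varied within each set and overlapped between libraries with and without a high Kupffer-type sum. Large peritoneal macrophage genes were also read. Of 13 tested, 10 were called lower, and 3 against all 7 diaphragm libraries. The list summed to 37.0 to 61.4 CPM in dura P5 and 4410 to 4750 CPM in diaphragm 2 and 8. Gata6, the factor that defines these cells, had 1.2, 0.0801 and 0.376 CPM in dura P5, compared with 3.25 and 3.59 CPM in diaphragm 2 and 8. Cd5l, given above, and Cxcl13, given below, are on this list and on another. They made up nearly all of the sum in diaphragm 2 and 8, where Cd5l alone had 3686 and 3145 CPM. The sum is therefore largely not separate from the Kupffer-type genes and the cytokine list. The part of liver or peritoneal cells in these differences was not tested, and in bulk libraries fewer cells of a type and less RNA per cell cannot be told apart.

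The promoters of Clec4f and Cd207 are shown because both genes, neighbours on chromosome 6 with 15027 bases and 0 other genes of the table between them, were all but absent from dura P5. The stretches are the 150 bases nearest upstream of each start (RefSeq, GRCm38.p6, minus strand, printed 5′ to 3′ along the gene), at chr6:83656117-83656266 for Clec4f and chr6:83677858-83678007 for Cd207. Capitals mark AGGTCA, the repeat unit of the sites that nuclear receptors such as LXR bind, in Clec4f. In Cd207 they mark GAGGAA, the core of the site of the macrophage factor PU.1. Each is read on the reverse strand. By GENCODE, Clec4f starts at chr6:83656187, inside its stretch, so by that annotation the marked letters lie within the gene.
Clec4f: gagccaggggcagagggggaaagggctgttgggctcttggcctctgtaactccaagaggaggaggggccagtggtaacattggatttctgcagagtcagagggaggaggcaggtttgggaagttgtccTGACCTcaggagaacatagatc
Cd207: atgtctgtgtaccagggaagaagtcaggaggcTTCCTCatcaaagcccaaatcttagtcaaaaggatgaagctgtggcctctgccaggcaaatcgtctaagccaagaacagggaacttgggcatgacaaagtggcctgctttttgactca
Both sets of letters are common, since 14% of 32851 promoters held AGGTCA and 23.3% held GAGGAA on either strand within 250 upstream bases. A match is a description of the letters and not evidence of binding.

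Cytokine and chemokine genes, the secreted signals of inflammation, mostly fell in dura P5. Of 29 cytokine and chemokine genes, all tested, 21 were called lower in dura P5 (12.6% over all genes) and 4 higher, with a median of -1.52 on the log2 scale. Against all 7 diaphragm libraries 14 were lower and 1 higher. Il6, the fever and acute-phase cytokine, had 14.4, 18.5 and 12.2 CPM in dura P5 and 194 and 109.8 CPM in diaphragm 2 and 8 (log2 fold change -3.34, SE 0.25, edgeR adjusted p = 1.13e-05). Il1a, the cell-bound form of interleukin 1, had 18.3, 49.8 and 24.8 CPM in dura P5 against 561 and 381 CPM in diaphragm 2 and 8 (log2 fold change -3.93, SE 0.35, edgeR adjusted p = 3.48e-05). Cxcl1, which attracts neutrophils, had 38.5, 59.4 and 55.4 CPM in dura P5, compared with 411 and 502 CPM in diaphragm 2 and 8 (log2 fold change -3.16, SE 0.18, edgeR adjusted p = 1.91e-06). For all 3 genes each of the 7 diaphragm libraries lay above each dural P5 library, with Il6 at 123 and 108 CPM in diaphragm 1 and 7 and 133, 144 and 184 CPM in 3, 9 and 6. Lif, a cytokine of the interleukin 6 family, had 0.769, 2.0 and 1.63 CPM in dura P5 and 37.9 and 75.1 CPM in diaphragm 2 and 8 (log2 fold change -5.23, SE 0.36, edgeR adjusted p = 7.51e-06). Cxcl3, a further neutrophil attractant, was low on both sides, with 1.45, 1.28 and 0.46 CPM in dura P5 against 11.2 and 10.8 CPM in diaphragm 2 and 8 (log2 fold change -3.44, SE 0.44, edgeR adjusted p = 0.0004). Cxcl13, which attracts B cells, had 25.8, 11.5 and 13.2 CPM in dura P5, compared with 971 and 1152 CPM in diaphragm 2 and 8 (log2 fold change -6.0, SE 0.29, edgeR adjusted p = 7.49e-07). It followed the Kupffer-type genes, with 421 and 852 CPM in diaphragm 1 and 7 but 13.1, 34 and 25.5 CPM in 3, 9 and 6, and its call was lost against all 7.

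Not all chemokines shared this direction. Among the 4 genes that rose was Ccl12, which encodes a CCR2 ligand of mice, with 332, 320.1 and 283 CPM in dura P5 and 136 and 85.7 CPM in diaphragm 2 and 8 (log2 fold change 1.49, SE 0.19, edgeR adjusted p = 0.000318). The summed list stood at 5910 to 6810 CPM in dura P5 and 12900 to 14800 CPM in diaphragm 2 and 8, and at 4220 to 7010 CPM over the other dural libraries against 10800 to 18100 CPM over the other diaphragm libraries, so that the tissues did not overlap in any set. Tnf had 123, 169.7 and 133 CPM in dura P5 against 645 and 549 CPM in diaphragm 2 and 8 (log2 fold change -2.07, SE 0.15, edgeR adjusted p = 8.79e-06). Il1rn, the natural blocker of the interleukin 1 receptor, had 48.7, 109 and 50.3 CPM in dura P5, compared with 496 and 389 CPM in diaphragm 2 and 8 (log2 fold change -2.68, SE 0.30, edgeR adjusted p = 0.000177). An inhibitor of the pathway was thus lower together with its agonist Il1a.

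**Figure D3:**
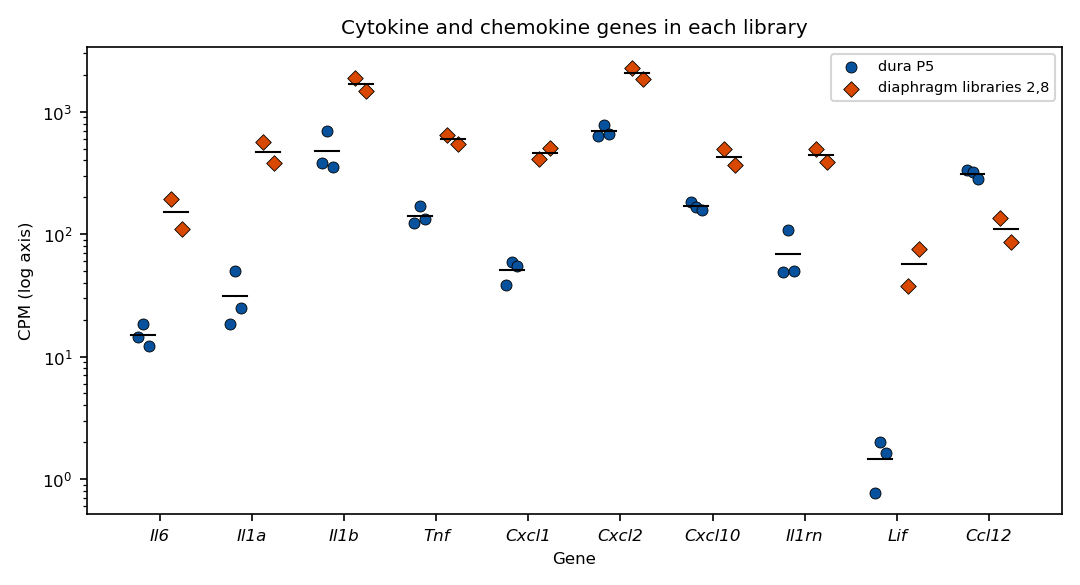
Levels of 10 cytokine and chemokine genes in CPM on a log axis, with dura P5 (circles, 3 libraries) left of diaphragm 2 and 8 (diamonds, 2 libraries) and black lines at the means. Ccl12 alone among the 10 lies higher in dura P5, at 283 to 332 CPM in dura P5 against 85.7 to 136 CPM in diaphragm 2 and 8.

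NF-kappaB is the factor through which Toll-like receptors and cytokines switch on most of these genes, and it also induces its own inhibitors. Of 20 subunits and feedback genes, all tested, 14 were called lower in dura P5 and 2 higher (1 without 3P5, 4P5 or diaphragm 8), with a median of -0.95. Relb, a subunit of the non-canonical branch, had 60.2, 68.6 and 71.4 CPM in dura P5 and 137 and 153 CPM in diaphragm 2 and 8 (log2 fold change -1.12, SE 0.13, edgeR adjusted p = 0.00018). Icam1, an adhesion molecule that NF-kappaB induces, had 187, 333 and 274 CPM in dura P5 against 644 and 577 CPM in diaphragm 2 and 8 (log2 fold change -1.21, SE 0.20, edgeR adjusted p = 0.00174). Tnip3, which encodes a binding partner of the inhibitor A20, had 2.48, 9.13 and 5.73 CPM in dura P5, compared with 85.3 and 44.3 CPM in diaphragm 2 and 8 (log2 fold change -3.48, SE 0.41, edgeR adjusted p = 0.000217). The difference in Tnip3 was far above that of the subunits on the log2 scale. Nfkb1, the p50 precursor, had 154, 193 and 194 CPM in dura P5 and 219.5 and 198 CPM in diaphragm 2 and 8. Nfkb1 did not pass (log2 fold change -0.21, SE 0.13, edgeR adjusted p = 0.297). Tnfaip3, which encodes A20 itself, had 777, 1190 and 918 CPM in dura P5 against 1261 and 1085 CPM in diaphragm 2 and 8. Tnfaip3 did not pass (log2 fold change -0.29, SE 0.16, edgeR adjusted p = 0.244).

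The proximal promoters of 4 of the called genes are shown because each holds an NF-kappaB consensus, here the letters GGGA, any 4 bases and CC. They are the 120 bases nearest upstream of the start (RefSeq, GRCm38.p6, plus strand), at chr5:90891125-90891244 for Cxcl1, chr5:90903779-90903898 for Cxcl2, chr5:90785981-90786100 for Cxcl3 and chr5:30012994-30013113 for Il6. Capitals mark each match on either strand, with overlapping matches run together.
Cxcl1: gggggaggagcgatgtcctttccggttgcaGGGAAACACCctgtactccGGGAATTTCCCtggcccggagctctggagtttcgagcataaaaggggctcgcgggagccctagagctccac
Cxcl2: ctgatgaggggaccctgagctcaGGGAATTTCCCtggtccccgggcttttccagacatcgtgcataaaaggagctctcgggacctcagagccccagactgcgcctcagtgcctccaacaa
Cxcl3: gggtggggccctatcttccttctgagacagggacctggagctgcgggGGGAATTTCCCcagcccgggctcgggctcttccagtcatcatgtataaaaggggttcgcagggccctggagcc
Il6: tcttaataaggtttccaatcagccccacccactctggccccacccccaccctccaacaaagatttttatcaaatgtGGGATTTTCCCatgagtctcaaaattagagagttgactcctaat
The 3 chemokine genes share the run GGGAATTTCCC, and Cxcl1 holds a further match upstream of it. Within 250 upstream bases the letters were found on either strand for 11 of 23 genes of the cytokine list (47.8%). For the NF-kappaB list they were found for 9 of 17 genes (52.9%). A list gene was counted when any of its promoters held the letters. Over all 32851 promoters, each counted separately, the share was 17.6%. The units differ and favour list genes with several promoters, so these shares cannot be compared directly. The NF-kappaB list was also made of subunits and feedback genes of NF-kappaB itself. The part of NF-kappaB in the differences between the sides was not tested. Cxcl2, the third of these neutrophil attractants, had 639, 778 and 653 CPM in dura P5, compared with 2268 and 1865 CPM in diaphragm 2 and 8 (log2 fold change -1.58, SE 0.12, edgeR adjusted p = 1.6e-05).

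**Figure D4:**
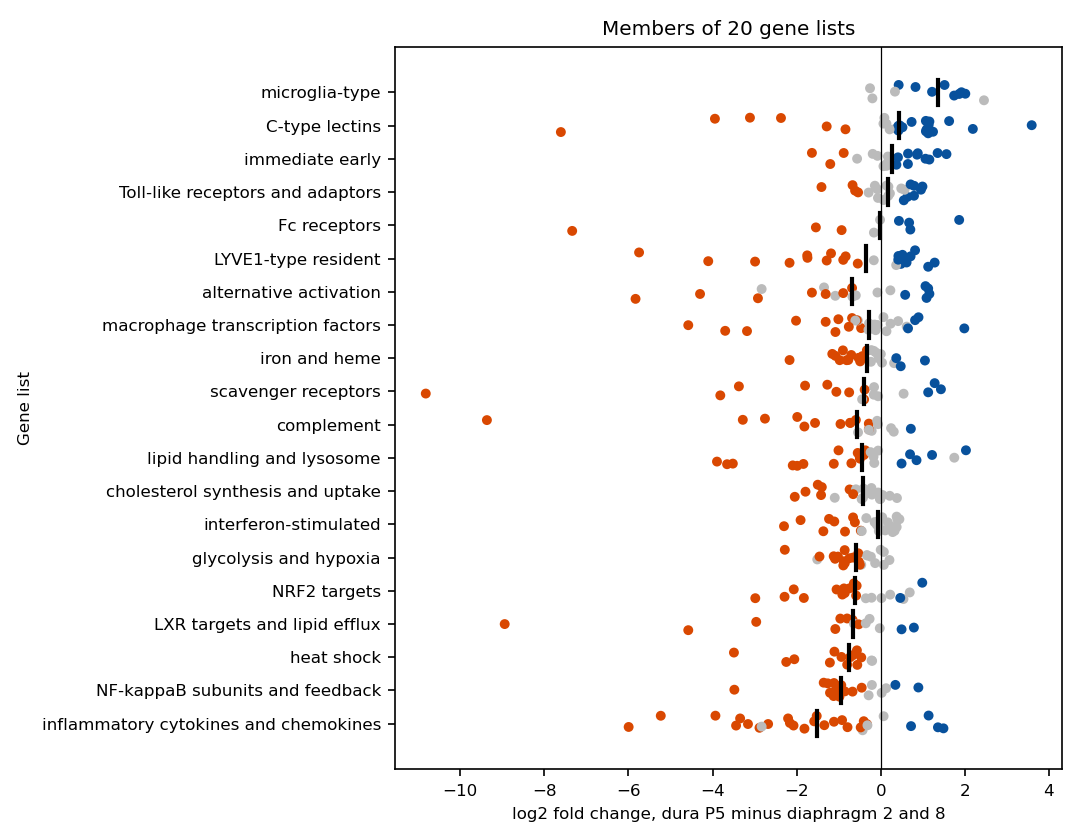
Log2 fold change (dura P5 minus diaphragm 2 and 8) of each tested member of 20 gene lists, blue for called higher, orange for called lower, grey for neither, with black bars at the list medians. The cytokine list has the lowest median (-1.52) and the microglia-type list the highest (1.37) of the 20.

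Heat shock genes were mostly lower in dura P5. Of 14 heat shock genes, all tested, 12 were called lower (9 without 3P5) and 0 higher, and against all 7 diaphragm libraries 8 were lower. Hspa1b, the stress-induced chaperone HSP70, had 33.9, 39.6 and 30.7 CPM in dura P5 and 292 and 486 CPM in diaphragm 2 and 8 (log2 fold change -3.49, SE 0.21, edgeR adjusted p = 2.46e-06). Its near-identical neighbour Hspa1a had 65.9, 58.3 and 53.5 CPM in dura P5 against 209 and 353 CPM in diaphragm 2 and 8, and reads shared by the pair are uncertain. Hsp90aa1, the inducible HSP90, had 90.9, 69.9 and 59 CPM in dura P5, compared with 166 and 172 CPM in diaphragm 2 and 8 (log2 fold change -1.21, SE 0.17, edgeR adjusted p = 0.000663). The constitutive Hspa8 did not pass (log2 fold change -0.22, SE 0.11, edgeR adjusted p = 0.195). Immediate early genes, which cells switch on within minutes of a stimulus, did not go the same way. Of 20, all tested, 10 were higher in dura P5 (10.1% over all genes) and 3 lower (1 without diaphragm 2). Against all 7 diaphragm libraries 8 were higher and 1 lower. Fos had 5698, 4656 and 5373 CPM in dura P5 and 2365 and 2337 CPM in diaphragm 2 and 8 (log2 fold change 1.16, SE 0.11, edgeR adjusted p = 4.52e-05). Jun had 3075, 2691 and 3597 CPM in dura P5 against 960.3 and 1483 CPM in diaphragm 2 and 8 (log2 fold change 1.35, SE 0.18, edgeR adjusted p = 0.000599). Btg2, an antiproliferative early gene, had 3350, 3052 and 3257 CPM in dura P5, compared with 1113 and 1065 CPM in diaphragm 2 and 8 (log2 fold change 1.56, SE 0.10, edgeR adjusted p = 3.35e-06). Myc went the other way, with 20.2, 27.4 and 25.1 CPM in dura P5 and 68.6 and 82.1 CPM in diaphragm 2 and 8 (log2 fold change -1.64, SE 0.17, edgeR adjusted p = 8.69e-05). How the diaphragm was digested is not stated in the labels, so preparation and tissue cannot be told apart.

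Of 20 targets of NRF2, the factor that answers oxidative and electrophilic stress, all of them tested, 12 were lower and 2 higher (1 without diaphragm 2) in dura P5, with a median of -0.61. Against all 7 diaphragm libraries 6 were lower. Gsr, glutathione reductase, had 32.9, 26.3 and 28.4 CPM in dura P5 against 149 and 136 CPM in diaphragm 2 and 8 (log2 fold change -2.29, SE 0.14, edgeR adjusted p = 3.05e-06). Txnrd1, thioredoxin reductase, had 67.5, 96 and 85 CPM in dura P5, compared with 401 and 294 CPM in diaphragm 2 and 8 (log2 fold change -2.07, SE 0.17, edgeR adjusted p = 2.38e-05). Srxn1, sulfiredoxin, had 31.5, 37.5 and 29.3 CPM in dura P5 and 126 and 106 CPM in diaphragm 2 and 8 (log2 fold change -1.83, SE 0.15, edgeR adjusted p = 2.25e-05). All 3 were above the dural P5 libraries in each of the 7 diaphragm libraries. Osgin1 was among the 2 that rose, with 46.2, 43.9 and 59 CPM in dura P5 against 24.3 and 25.9 CPM in diaphragm 2 and 8 (log2 fold change 0.99, SE 0.17, edgeR adjusted p = 0.00254), a call lost with all 9 dural against all 7 diaphragm libraries.

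Hmox1, which NRF2 induces and which also belongs to iron and heme handling, is counted in neither list. Among the other genes of iron and heme handling, 12 of 23 tested were lower and 3 higher (1 without 3P5, 4P5, diaphragm 2 or diaphragm 8), and against all 7 diaphragm libraries 3 lower and 1 higher. Slc40a1, the iron exporter ferroportin, had 250.1, 299.6 and 306 CPM in dura P5, compared with 1188 and 1378 CPM in diaphragm 2 and 8 (log2 fold change -2.17, SE 0.12, edgeR adjusted p = 1.8e-06). In the other diaphragm libraries it was at 251 and 563 CPM in 1 and 7 and 9.45, 10.1 and 8.07 CPM in 3, 9 and 6, and its call was lost against all 7. Cp, the copper ferroxidase ceruloplasmin, rose, with 210.3, 266 and 312 CPM in dura P5 and 133 and 121 CPM in diaphragm 2 and 8 (log2 fold change 1.05, SE 0.16, edgeR adjusted p = 0.00129), a call lost against all 7. Cd163, the receptor for haptoglobin-bound hemoglobin, had 892, 1197 and 1372 CPM in dura P5 against 1298 and 1290 CPM in diaphragm 2 and 8. Cd163 did not pass (log2 fold change -0.16, SE 0.16, edgeR adjusted p = 0.502). Blvrb, which reduces biliverdin, one product of heme degradation, had 263, 232 and 233 CPM in dura P5, compared with 243 and 282 CPM in diaphragm 2 and 8. Blvrb did not pass (log2 fold change -0.11, SE 0.12, edgeR adjusted p = 0.54).

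Glycolysis and hypoxia genes were lower in 14 of 24 tested and higher in 0, and against all 7 diaphragm libraries in 9 of 25. Ldha, lactate dehydrogenase, had 195, 184 and 168 CPM in dura P5 and 389.8 and 383 CPM in diaphragm 2 and 8 (log2 fold change -1.08, SE 0.11, edgeR adjusted p = 7.55e-05). Hk2, an inducible hexokinase, had 112, 124 and 117 CPM in dura P5 against 224 and 213 CPM in diaphragm 2 and 8 (log2 fold change -0.89, SE 0.11, edgeR adjusted p = 0.000292). Slc16a3, a lactate exporter, had 9.32, 8.01 and 6.02 CPM in dura P5, compared with 35.4 and 39.4 CPM in diaphragm 2 and 8 (log2 fold change -2.28, SE 0.21, edgeR adjusted p = 4.51e-05). Gpi1, a glycolytic isomerase, had 304, 298 and 282 CPM in dura P5 and 294 and 295 CPM in diaphragm 2 and 8. Gpi1 did not pass (log2 fold change -0.0, SE 0.09, edgeR adjusted p = 1). In cholesterol synthesis and uptake 7 of 22 tested genes were lower and 0 higher. Insig1, which holds the sterol sensor in place, had 61.4, 78.4 and 67 CPM in dura P5 against 195 and 194 CPM in diaphragm 2 and 8 (log2 fold change -1.5, SE 0.13, edgeR adjusted p = 3.22e-05). Of 14 tested LXR targets and lipid efflux genes, Nr1h3 and Apoc1 among them, 8 fell (5 without diaphragm 8) and 2 rose (1 without either diaphragm library), and against all 7 diaphragm libraries 5 fell and 1 rose. The summed list went the other way, at 28100 to 31700 CPM in dura P5 and 22400 to 24100 CPM in diaphragm 2 and 8. Scd1, a fatty acid desaturase, had 16.6, 15.8 and 9.7 CPM in dura P5, compared with 106 and 109 CPM in diaphragm 2 and 8 (log2 fold change -2.96, SE 0.21, edgeR adjusted p = 8.79e-06). Abca1, the cholesterol exporter, was higher in dura P5, with 589.6, 833 and 1111 CPM in dura P5 and 475 and 503 CPM in diaphragm 2 and 8 (log2 fold change 0.79, SE 0.21, edgeR adjusted p = 0.0252). That call rested on both diaphragm libraries, with an edgeR adjusted p of 0.121 without diaphragm 2 and 0.0819 without diaphragm 8.

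Resident macrophage genes were divided. Of 22 LYVE1-type genes, all tested, 9 were higher and 11 lower in dura P5, and only 2 and 2 against all 7 diaphragm libraries. Lyve1, the hyaluronan receptor that names the group, had 81.1, 90 and 134 CPM in dura P5 against 773 and 846 CPM in diaphragm 2 and 8 (log2 fold change -2.99, SE 0.19, edgeR adjusted p = 4e-06). It was above dura P5 in every diaphragm library, at 1403 and 1515 CPM in 1 and 7 and 314, 344 and 224 CPM in 3, 9 and 6. Folr2, folate receptor beta, had 394, 389.9 and 496 CPM in dura P5, compared with 1362 and 1504 CPM in diaphragm 2 and 8 (log2 fold change -1.75, SE 0.13, edgeR adjusted p = 8.79e-06). That call was lost against all 7. Ednrb, an endothelin receptor, had 14.5, 22.2 and 26 CPM in dura P5 and 335 and 391 CPM in diaphragm 2 and 8 (log2 fold change -4.1, SE 0.21, edgeR adjusted p = 8.63e-07), and its call was also lost against all 7. Higher in dura P5 was Mrc1, the mannose receptor CD206, with 3677, 4551 and 5324 CPM in dura P5 against 2081 and 2049 CPM in diaphragm 2 and 8 (log2 fold change 1.13, SE 0.14, edgeR adjusted p = 0.000347). Stab1, a scavenger receptor for modified lipoproteins, had 2570, 3292 and 4563 CPM in dura P5, compared with 1469 and 1386 CPM in diaphragm 2 and 8 (log2 fold change 1.28, SE 0.20, edgeR adjusted p = 0.00134). That call was lost against all 7. Its relative Stab2 went the opposite way, with 4.27, 7.05 and 5.6 CPM in dura P5 and 87.6 and 71.5 CPM in diaphragm 2 and 8 (log2 fold change -3.81, SE 0.21, edgeR adjusted p = 1.37e-06), again lost against all 7.

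Among 26 C-type lectins tested, 15 were higher (10.1% over all genes) and 6 lower, and against all 7 diaphragm libraries 7 were higher and 2 lower. Mgl2, a galactose-binding lectin of alternatively activated macrophages, had 1318, 1226 and 1132 CPM in dura P5 against 588 and 510.5 CPM in diaphragm 2 and 8 (log2 fold change 1.16, SE 0.11, edgeR adjusted p = 7.33e-05). Clec2i had 29.6, 35.4 and 38.8 CPM in dura P5, compared with 11.1 and 11.3 CPM in diaphragm 2 and 8 (log2 fold change 1.63, SE 0.18, edgeR adjusted p = 0.000169). The lectins that fell included Clec4e, the Mincle receptor for mycobacterial and damage-related glycolipids, with 6.92, 7.77 and 8.11 CPM in dura P5 and 53 and 78.9 CPM in diaphragm 2 and 8 (log2 fold change -3.11, SE 0.20, edgeR adjusted p = 4.02e-06), and its partner Clec4d, with 7.86, 8.01 and 6.06 CPM in dura P5 against 45.8 and 29.3 CPM in diaphragm 2 and 8 (log2 fold change -2.37, SE 0.23, edgeR adjusted p = 6.95e-05). Among the 19 tested genes of alternative activation, the state induced by interleukin 4, 5 rose and 7 fell. Retnla, the secreted protein RELM-alpha, had 54.9, 31.6 and 24.5 CPM in dura P5, compared with 2111 and 2060 CPM in diaphragm 2 and 8 (log2 fold change -5.83, SE 0.29, edgeR adjusted p = 7.49e-07). It was 1091 and 959.9 CPM in diaphragm 1 and 7, 3897, 3671 and 3362 CPM in 3, 9 and 6, and at most 120.6 CPM in the other dural libraries. Tgm2, a transglutaminase, had 34.1, 38.7 and 20.7 CPM in dura P5 and 671 and 543 CPM in diaphragm 2 and 8 (log2 fold change -4.3, SE 0.23, edgeR adjusted p = 1.35e-06).

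Genes known from microglia, the macrophages of brain tissue, were higher in dura P5. Of 12 tested genes known from microglia, 8 were higher and 0 lower, with a median of 1.37, and against all 7 diaphragm libraries 5 of 11 were higher. Cx3cr1, the fractalkine receptor, had 1318, 1397 and 1316 CPM in dura P5 against 328 and 338 CPM in diaphragm 2 and 8 (log2 fold change 2.01, SE 0.10, edgeR adjusted p = 8.63e-07). Fcrls, an Fc receptor-like scavenger gene, had 1935, 2048 and 2130 CPM in dura P5, compared with 659 and 458 CPM in diaphragm 2 and 8 (log2 fold change 1.87, SE 0.15, edgeR adjusted p = 2.18e-05). Gpr34, a lysophosphatidylserine receptor, had 354, 283 and 270.4 CPM in dura P5 and 99.4 and 80.8 CPM in diaphragm 2 and 8 (log2 fold change 1.75, SE 0.16, edgeR adjusted p = 3.9e-05). For these 3 genes each of the 7 diaphragm libraries was below each dural P5 library. Siglech, a sialic acid-binding receptor, had 123, 134 and 129 CPM in dura P5 against 50.9 and 38.9 CPM in diaphragm 2 and 8 (log2 fold change 1.52, SE 0.15, edgeR adjusted p = 6.95e-05). Trem2, a lipid-sensing receptor, had 285, 197 and 199 CPM in dura P5, compared with 85 and 109.5 CPM in diaphragm 2 and 8 (log2 fold change 1.22, SE 0.19, edgeR adjusted p = 0.0012). Tmem119 had 75.5, 51.6 and 51.6 CPM in dura P5 and 11.5 and 19.9 CPM in diaphragm 2 and 8 (log2 fold change 1.92, SE 0.26, edgeR adjusted p = 0.000631), but its level in diaphragm 9 was 64.4 CPM and the call was lost against all 7. P2ry13, an ADP receptor, had 146, 181 and 167 CPM in dura P5 against 184 and 194 CPM in diaphragm 2 and 8. P2ry13 did not pass (log2 fold change -0.2, SE 0.12, edgeR adjusted p = 0.285). These genes are not unique to microglia. The summed list was 5140 to 5160 CPM in dura P5 against 1940 to 2060 CPM in diaphragm 2 and 8, and 4380 to 5590 CPM in dura P4 and P6.

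Among genes that averaged 20 CPM or more on each side, further ones with the highest fold changes are named next. Sesn1, a stress-induced regulator of the growth kinase mTORC1, had 284, 269 and 285 CPM in dura P5, compared with 68.9 and 87.5 CPM in diaphragm 2 and 8 (log2 fold change 1.83, SE 0.13, edgeR adjusted p = 1.04e-05). Gpr183, an oxysterol receptor that guides immune cells, had 90.4, 96.6 and 109 CPM in dura P5 and 22.6 and 34 CPM in diaphragm 2 and 8 (log2 fold change 1.8, SE 0.19, edgeR adjusted p = 0.000119). Kmo, an enzyme of tryptophan breakdown, had 81.9, 76.3 and 84.5 CPM in dura P5 against 23.9 and 19.8 CPM in diaphragm 2 and 8 (log2 fold change 1.89, SE 0.15, edgeR adjusted p = 1.96e-05). In all 3 the dural P5 libraries lay above each of the 7 diaphragm libraries. Slc15a2, a transporter of small peptides, had 109.5, 132 and 136 CPM in dura P5, compared with 32.6 and 18.7 CPM in diaphragm 2 and 8 (log2 fold change 2.29, SE 0.23, edgeR adjusted p = 7.45e-05). Tmem8 had 118, 139.7 and 145 CPM in dura P5 and 35.7 and 38.6 CPM in diaphragm 2 and 8 (log2 fold change 1.85, SE 0.14, edgeR adjusted p = 1.46e-05). Neither of these overlapped with any diaphragm library. Gpx3, the secreted glutathione peroxidase, had 615, 577 and 453 CPM in dura P5 against 80.7 and 74 CPM in diaphragm 2 and 8 (log2 fold change 2.83, SE 0.16, edgeR adjusted p = 1.63e-06). Itga6, an integrin chain that binds laminin, had 86.8, 122 and 116 CPM in dura P5, compared with 25.6 and 23.8 CPM in diaphragm 2 and 8 (log2 fold change 2.13, SE 0.18, edgeR adjusted p = 2.27e-05), with a call lost against all 7. Diaphragm 1, 7, 3, 9 and 6 stood at 67.87 to 84.27 CPM. Igfbp5, which binds insulin-like growth factors, had 378, 588 and 561 CPM in dura P5 and 10.2 and 33.8 CPM in diaphragm 2 and 8 (log2 fold change 4.53, SE 0.45, edgeR adjusted p = 7.75e-05). Mgp, matrix Gla protein, had 267, 139 and 119 CPM in dura P5 against 22.9 and 30 CPM in diaphragm 2 and 8 (log2 fold change 2.72, SE 0.33, edgeR adjusted p = 0.00028). The calls of Igfbp5 and Mgp were lost against all 7, and both genes are also known from fibroblasts. The 12 fibroblast genes summed to 610 to 816 CPM in dura P5 and 538 and 877 CPM in diaphragm 2 and 8. These sums overlapped, but 2 members were called higher and 5 lower. The list summed to 2170 to 3940 CPM in dura P4, 265 to 411 CPM in dura P6 and 7830 to 15700 CPM in diaphragm 1 and 7. Igfbp5 had 1629, 2315 and 1465 CPM in dura P4, 143.4, 226.9 and 151.6 CPM in dura P6, and 196 and 192.4 CPM in diaphragm 1 and 7. Mgp had 479.1, 503.5 and 331.2 CPM, 74.82, 124.5 and 67.21 CPM, and 662.7 and 331.7 CPM in the same order. The part of fibroblasts in Igfbp5 and Mgp was not tested.

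Among genes that averaged 20 CPM or more on each side, those that fell furthest in dura P5 included Retnla, Tgm2, Fcna, Ednrb, Il1a and Hspa1b, given above, Timd4, given as values only, and 5 more. Cd44, the hyaluronan receptor of activated leukocytes, had 58, 57.5 and 52.5 CPM in dura P5, compared with 907 and 882 CPM in diaphragm 2 and 8 (log2 fold change -4.0, SE 0.11, edgeR adjusted p = 1.59e-08). Ecm1, an extracellular matrix protein, had 22, 41.9 and 33.7 CPM in dura P5 and 444 and 503 CPM in diaphragm 2 and 8 (log2 fold change -3.86, SE 0.22, edgeR adjusted p = 1.86e-06). C3, the central complement component, had 117, 211 and 239 CPM in dura P5 against 1560 and 2113 CPM in diaphragm 2 and 8 (log2 fold change -3.28, SE 0.26, edgeR adjusted p = 1.65e-05). Cd44 and Ecm1 did not overlap between dura P5 and any diaphragm library, nor did C3, which had 377, 601 and 274 CPM in diaphragm 3, 9 and 6. Actn1, which crosslinks actin, had 26.3, 34.4 and 32.8 CPM in dura P5, compared with 324 and 323 CPM in diaphragm 2 and 8 (log2 fold change -3.37, SE 0.14, edgeR adjusted p = 2.08e-07). That call was lost against all 7. Diaphragm 3, 9 and 6 had 38.8, 39.2 and 30.4 CPM. Bhlhe40, a repressor that also acts on the clock and on macrophage proliferation, had 19.3, 24.5 and 17 CPM in dura P5 and 249 and 275 CPM in diaphragm 2 and 8 (log2 fold change -3.7, SE 0.16, edgeR adjusted p = 3.78e-07). Irf4, which promotes alternative activation, had 19.6, 22 and 27.6 CPM in dura P5 against 59.4 and 55.5 CPM in diaphragm 2 and 8 (log2 fold change -1.31, SE 0.17, edgeR adjusted p = 0.000418). Over 28 transcription factors, all tested, 11 fell and 4 rose, and against all 7 diaphragm libraries 8 fell and 2 rose.

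**Figure D5:**
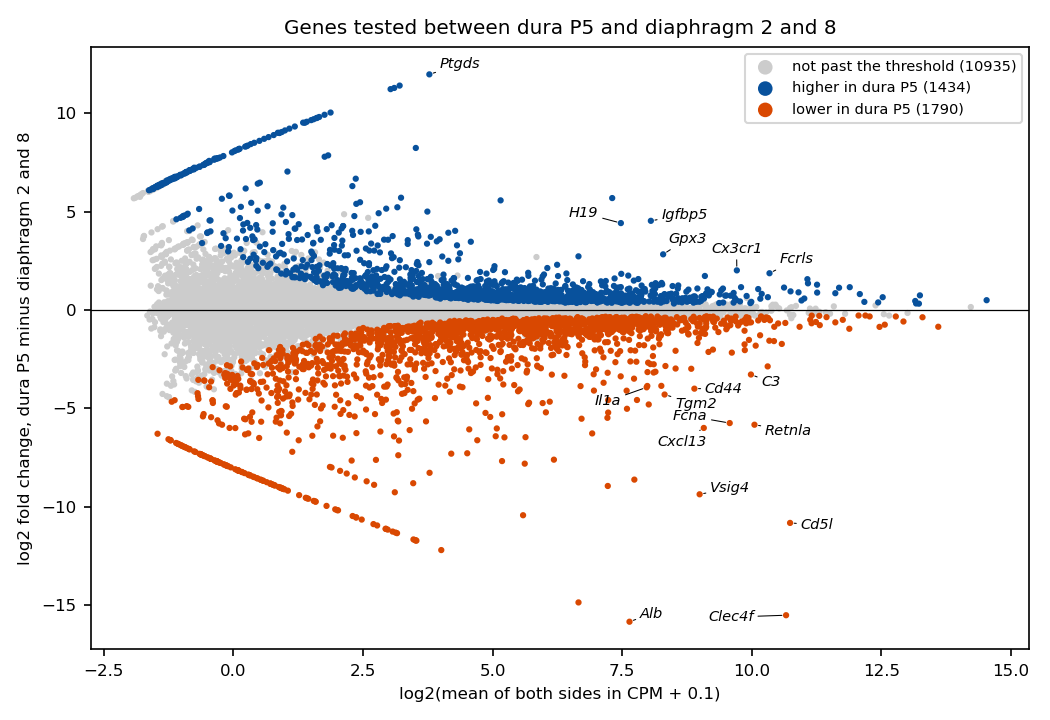
Log2 fold change (dura P5 minus diaphragm 2 and 8) against the mean level of both sides as log2(CPM + 0.1), for all 14159 tested genes, with the 1434 called higher in blue and the 1790 called lower in orange. The rays at both edges are genes with 0 counts on one side, whose fitted fold change is no bound.

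Monocyte-associated genes were lower in dura P5, although Ccr2 was higher there. Of 17 tested classical monocyte genes, 10 were lower and 1 higher (0 without 3P5). Against all 7 diaphragm libraries 8 of 18 were lower and 0 higher. Plac8 had 0.769, 2.24 and 0.585 CPM in dura P5, compared with 121 and 74.8 CPM in diaphragm 2 and 8 (log2 fold change -6.46, SE 0.40, edgeR adjusted p = 3.47e-06). Itgal, the integrin chain of LFA-1, had 44.2, 70.4 and 58 CPM in dura P5 and 529 and 485 CPM in diaphragm 2 and 8 (log2 fold change -3.14, SE 0.17, edgeR adjusted p = 1.5e-06). Fn1, fibronectin, had 45, 30.2 and 14.1 CPM in dura P5 against 221 and 315 CPM in diaphragm 2 and 8 (log2 fold change -3.19, SE 0.37, edgeR adjusted p = 0.000193). The sides did not overlap in any of these. Treml4, a receptor that binds dying cells, had 5.9, 5.68 and 4.3 CPM in dura P5, compared with 139.5 and 124 CPM in diaphragm 2 and 8 (log2 fold change -4.66, SE 0.17, edgeR adjusted p = 1.34e-07). For these 4 genes the diaphragm libraries other than 2 and 8 were also above each dural P5 library. Of 15 tested dendritic cell genes, 4 were lower (2 without diaphragm 2) and 2 higher, and the summed levels overlapped (306 to 345 CPM in dura P5, 278 and 343 CPM in diaphragm 2 and 8).

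Receptors for complement, antibody and microbial products gave mixed lists. Among 20 complement genes, all tested, 12 fell and 1 rose (3 without 1P5, 0 without diaphragm 8), with Vsig4 and C3 already given, and against all 7 diaphragm libraries 4 fell. Cfp, properdin, had 601, 674 and 690.3 CPM in dura P5 and 1794 and 2075 CPM in diaphragm 2 and 8 (log2 fold change -1.56, SE 0.11, edgeR adjusted p = 7.42e-06). That call was lost against all 7. Of 22 Toll-like receptors and adaptors, all tested, 7 were higher and 4 lower, and against all 7 diaphragm libraries 6 were higher and 1 lower. Without diaphragm 2 the counts were 3 higher and 2 lower, and without diaphragm 8 they were 3 and 3. Tlr7, the sensor of single-stranded RNA, had 330.3, 380.2 and 394 CPM in dura P5 against 183 and 187 CPM in diaphragm 2 and 8 (log2 fold change 0.99, SE 0.12, edgeR adjusted p = 0.000233). Tlr13, a sensor of bacterial ribosomal RNA, had 141, 171 and 150.5 CPM in dura P5, compared with 87.2 and 101 CPM in diaphragm 2 and 8 (log2 fold change 0.71, SE 0.13, edgeR adjusted p = 0.00393). Tlr2 had 412, 644 and 593 CPM in dura P5 and 706 and 635 CPM in diaphragm 2 and 8. Tlr2 did not pass (log2 fold change -0.29, SE 0.17, edgeR adjusted p = 0.263). Of 9 Fc receptor genes, all tested, 4 rose and 3 fell (1 without diaphragm 8), and against all 7 diaphragm libraries 3 rose and 0 fell. Interferon-stimulated genes were lower in 9 of 26 tested (5 without diaphragm 2) and higher in 0, with a median of -0.07, so most members did not pass, and against all 7 diaphragm libraries 3 were lower and 2 higher. Isg15, a ubiquitin-like modifier, had 36.9, 26.8 and 25.9 CPM in dura P5 against 80.1 and 59.5 CPM in diaphragm 2 and 8 (log2 fold change -1.23, SE 0.19, edgeR adjusted p = 0.00143). Of 24 genes of lipid handling and lysosomes, all tested, 14 fell (9 without diaphragm 8) and 5 rose, and against all 7 diaphragm libraries 4 fell and 3 rose. This summed list also went the other way, at 48200 to 50500 CPM in dura P5 and 42500 to 44700 CPM in diaphragm 2 and 8. Lgals3, galectin 3, had 77.1, 69.1 and 54.8 CPM in dura P5, compared with 268 and 302 CPM in diaphragm 2 and 8 (log2 fold change -2.09, SE 0.15, edgeR adjusted p = 8.79e-06). Fabp4, a fatty acid-binding protein, had 3.08, 3.76 and 1.3 CPM in dura P5 and 41.1 and 35.7 CPM in diaphragm 2 and 8 (log2 fold change -3.89, SE 0.34, edgeR adjusted p = 3.53e-05).

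Uptake, growth and signalling lists completed the comparison. Scavenger receptors were higher in 3 and lower in 9 of 17 tested, and against all 7 diaphragm libraries in 1 and 2. Efferocytosis genes were higher in 5 and lower in 7 of 23 tested, and against all 7 in 2 and 2 of 24. Without 3P5 or diaphragm 2 the count of higher genes was 3, and without diaphragm 8 that of lower genes was 4. Axl, a receptor that binds dying cells through GAS6, had 1261, 1370 and 1373 CPM in dura P5 against 1314 and 1354 CPM in diaphragm 2 and 8. Axl did not pass (log2 fold change 0.0, SE 0.09, edgeR adjusted p = 0.996). Of 17 growth factor genes tested, 6 fell and 4 rose, and against all 7 diaphragm libraries 3 fell and 1 rose. The count of rising genes was 1 without 3P5 and 2 without diaphragm 2. Hbegf, a ligand of the EGF receptor, had 31.8, 59 and 43 CPM in dura P5, compared with 255 and 219 CPM in diaphragm 2 and 8 (log2 fold change -2.41, SE 0.21, edgeR adjusted p = 3.53e-05). Areg, a further one, had 0.684, 1.92 and 1.17 CPM in dura P5 and 36.5 and 19.8 CPM in diaphragm 2 and 8 (log2 fold change -4.48, SE 0.38, edgeR adjusted p = 2.81e-05). Of 17 prostaglandin and leukotriene genes tested, 6 fell and 3 rose, and against all 7 diaphragm libraries 3 fell and 3 rose. Ptger4, a prostaglandin E2 receptor, had 387, 355 and 401 CPM in dura P5 against 162 and 152 CPM in diaphragm 2 and 8 (log2 fold change 1.28, SE 0.11, edgeR adjusted p = 3.53e-05). Hpgds, which makes prostaglandin D2, had 134, 176 and 166 CPM in dura P5, compared with 70.1 and 71.3 CPM in diaphragm 2 and 8 (log2 fold change 1.17, SE 0.14, edgeR adjusted p = 0.000299). Cell cycle genes were lower in 10 of 20 tested and higher in 0, and lower in 5 against all 7 diaphragm libraries. Leaving out any of the 5 libraries brought the count to 5 (without 1P5) or 6 (without each of the others). Mki67, a marker of dividing cells, had 4.62, 6.57 and 6.31 CPM in dura P5 and 19.9 and 13.2 CPM in diaphragm 2 and 8 (log2 fold change -1.5, SE 0.26, edgeR adjusted p = 0.00279). That call was lost against all 7.

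A further group had a mean of at least 20 CPM on one side and less on the other. Higher in dura P5 was Ptgds, the prostaglandin D synthase of the meninges, with 37, 21.9 and 22.9 CPM in dura P5 and 0 counts in diaphragm 2 and 8, at least 381-fold higher. S100b, a calcium-binding protein of glia and other cells, had 25.7, 24.3 and 17.9 CPM in dura P5 against 0 and 0.136 CPM in diaphragm 2 and 8, a ratio of 314 with a counting interval of 107 to 1530. Both genes were thus at or next to 0 in the diaphragm pair. Shisa3 had 68, 74.7 and 65.9 CPM in dura P5, compared with 1.6 and 1.32 CPM in diaphragm 2 and 8 (log2 fold change 5.57, SE 0.20, edgeR adjusted p = 1.17e-07). Alpl, the alkaline phosphatase of bone, had 24.4, 28.1 and 24.7 CPM in dura P5 and 1.51 and 0.0908 CPM in diaphragm 2 and 8 (log2 fold change 5.0, SE 0.59, edgeR adjusted p = 0.000233). In these genes too the sides lay far apart with no overlap. Igf2, an imprinted growth factor, had 282, 359 and 291 CPM in dura P5 against 1.92 and 10.1 CPM in diaphragm 2 and 8 (log2 fold change 5.68, SE 0.52, edgeR adjusted p = 4.51e-05). H19, the non-coding RNA beside it, had 348, 353 and 317 CPM in dura P5, compared with 19.6 and 12.3 CPM in diaphragm 2 and 8 (log2 fold change 4.41, SE 0.21, edgeR adjusted p = 5.39e-07). Of 12 listed genes of meninges and choroid plexus 7 were tested, with 6 higher and 0 lower (3 of 8 higher against all 7 diaphragm libraries). The 12 summed to 92.0 to 118 CPM in dura P5 and 15.3 and 16.2 CPM in diaphragm 2 and 8. Of 8 listed osteoblast genes 4 were tested and 3 were higher. The 8 summed to 30.1 to 37.5 CPM in dura P5 and 2.56 and 0.136 CPM in diaphragm 2 and 8. Some members had counts in dura P5 alone, such as Zic1 (807 against 0 counts) and Sp7 (149 against 0 counts). Such genes could enter the test only through dura P5, so these numbers of calls are no added support.

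Lower in dura P5, beside the liver genes, were transcripts of skeletal muscle. Tnnt3, a troponin of fast muscle, and Mb, myoglobin, had 0 counts in dura P5. In diaphragm 2 and 8 Tnnt3 had 30.6 and 15.2 CPM and Mb had 29.4 and 16 CPM, at least 367-fold and 364-fold lower in dura P5. The 14 muscle genes, of which 11 were tested and 9 called lower, summed to 7.98 to 10.1 CPM in dura P5 and 264 and 154 CPM in diaphragm 2 and 8. A gene with 0 counts in dura P5 could enter the test only through the diaphragm side, so its call is no added support. Mast cell genes summed to 14.3 to 35.4 CPM in dura P5 and 1.92 and 0.545 CPM in diaphragm 2 and 8. In the other diaphragm libraries they summed to 111 and 163 CPM in 1 and 7 and 11.4, 2.4 and 77.2 CPM in 3, 9 and 6. Against all 7 diaphragm libraries 0 mast cell genes were called. Red cell genes summed to 20.2 to 109 CPM in dura P5 and 8.28 and 1.14 CPM in diaphragm 2 and 8. Of 11 tested endothelial genes 1 rose (2 without 4P5) and 2 fell (1 without 4P5 or diaphragm 8), and these calls were lost against all 7 diaphragm libraries. Cdh5, VE-cadherin, which Kupffer cells also express, had 13.8, 16.9 and 5.1 CPM in dura P5 and 364 and 384 CPM in diaphragm 2 and 8 (log2 fold change -5.02, SE 0.37, edgeR adjusted p = 1.01e-05). Vwf, which endothelium releases into blood, had 82.8, 114 and 33.4 CPM in dura P5 against 59.6 and 84.2 CPM in diaphragm 2 and 8. Vwf did not pass (log2 fold change 0.08, SE 0.39, edgeR adjusted p = 0.909). The part of these cells in the differences above was not tested.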

How the data were processed

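RNA from macrophages sorted in bulk was sequenced, per the labels' protocols, with a kit that does not keep strand and as single-end reads of 75 bases; the protocols describe the dura only. GRCm38, STAR 2.4.0j, featureCounts and DESeq2 1.20.0 are listed in the submitters' processing notes. The authors deposited whole-number counts for 41388 genes in 24 columns, all of them mapped to a tissue. They were read as raw counts although the table is called normalised, because column totals differ widely. Column names show tissue, number and mark but no labelled subset. Of the 15 diaphragm columns, 6 with an added prefix were repeat runs (chi-square per degree of freedom 1.008 to 1.169, against at least 10.6 between other pairs) and were summed, and 2 columns with 1496 and 2115 counts were left out, which leaves 16 libraries. Where genes on opposite strands overlap, their reads cannot be told apart.

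The 5 libraries were tested with edgeR 4.0.16 (R 4.3.3) by the quasi-likelihood test after filterByExpr, with TMM factors from all 16 libraries, two-sided, with Benjamini-Hochberg adjustment over 14159 genes and a threshold of 0.05. All fold changes are dura P5 minus diaphragm 2 and 8, as log2 values computed here. The biological coefficient of variation was 0.22. A count of 0 was given a limit of 3 counts over the side, and ratios with 1 to 3 counts have exact 95% intervals that cover counting error only. The test was checked on simulated counts. Tried in their place were upper-quartile and RLE factors, unscaled library totals, 2 other filters, DESeq2 1.42.0, limma-voom (limma 3.58.1), a spread shared by 16 libraries, other sets of libraries, runs without the prefix, each library left out, and, chosen after seeing the data, TMM factors from the 5 libraries.

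The members and the gene lists were chosen with earlier results of these data known. Named were the 12 highest and 12 lowest called genes of at least 20 CPM on both sides, the 6 highest and 6 lowest with this level on one side only, and up to 6 called members of each list, with members of at least 50 CPM that did not pass; some genes that this rule names are not reported here. Ccl12, Tnf, Il1rn, Cxcl2, Il1b, Cxcl10, Mrc1, Clec2i, Abca1, Gata6 and the Kupffer cell genes as a list were named after their values were seen. MHC class II genes, Ccr2, Marco, Timd4, Cd207 and Hmox1 were in the fit over all genes but in none of the lists whose calls are counted, and are given as values with no test. Ensembl IDs were given symbols by a table of names (40254 genes matched), coordinates from GENCODE and promoters from RefSeq (GRCm38.p6).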

Additional observations from a re-analysis of the deposited data

How the results depend on the processing

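The number of genes past the threshold was 3224, with 1434 higher and 1790 lower in dura P5. It stayed within 1.5 times these values under the other factors, filters, tools and treatments of the repeat runs, with 2515 calls when all 16 libraries shared the spread and 3772 with no filter. Dura P5 against all 7 diaphragm libraries gave 1627 calls, 681 higher and 946 lower. Leaving out each of the 5 libraries in turn gave 2210 to 3216 calls, 834 to 1395 higher and 1333 to 1821 lower. The lowest number of higher calls came without dural library 3P5, and it was 915 without diaphragm 2. Where a side was left with 1 library, that library was assumed to vary like the other side. The set of all 9 dural against all 7 diaphragm libraries gave 3508 calls, of which 1946 were shared with the matched list. That set takes the 9 dural libraries as independent although they carry only 3 numbers, and numbers 1 and 3 occur in both tissues, with nothing in the labels to say that they pair. Interferon-stimulated genes, 0 of which were called higher in the main fit, had 2 higher with DESeq2, limma-voom, upper-quartile factors or either other filter. They had 1 higher when all 16 libraries shared the spread and 4 with library totals. With library totals in place of TMM factors the median over all genes moved to 0.105 on the log2 scale and the share of calls that were higher to 53.4%, from 44.5%. Of 104 called genes named in the text, 21 lost their call against all 7 diaphragm libraries, 7 with all 9 dural against all 7 diaphragm libraries, 3 without a single library and 0 under the other settings, and 0 changed direction. No paired analysis was possible because the dural libraries carry the numbers 1, 3 and 4 and the diaphragm libraries 2 and 8, so no number is shared. Depth limits genes with few counts, where 3 counts over a side correspond to 0.0624 CPM in dura P5 and 0.0684 CPM in diaphragm 2 and 8, and these limits cover counting error only.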

Other observations

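Clock genes keep daily rhythm in most cells. Of 17, all tested, 5 were higher and 4 lower in dura P5, against 10.1% and 12.6% over all tested genes. Against all 7 diaphragm libraries 3 were higher and 3 lower. The count of higher genes rested on single libraries and on the filter, at 1 without diaphragm 8, 3 without dural library 3P5 or 4P5 and 8 with no filter, and that of lower genes was 2 without diaphragm 2. Cry1, a repressor of the clock, had 4.79, 5.21 and 5.77 CPM in dura P5, compared with 18.4 and 25.3 CPM in diaphragm 2 and 8 (log2 fold change -2.05, SE 0.23, edgeR adjusted p = 0.000157), and was between 18.4 and 25.3 CPM in each of the 7 diaphragm libraries. Dbp, which oscillates under clock control, had 23.2, 25.5 and 24.1 CPM in dura P5 and 15.1 and 7.49 CPM in diaphragm 2 and 8 (log2 fold change 1.1, SE 0.27, edgeR adjusted p = 0.0167), a call lost without diaphragm 8 (edgeR adjusted p = 0.051). Clock itself had 38, 42.4 and 53.8 CPM in dura P5 against 47.4 and 46.5 CPM in diaphragm 2 and 8 and did not pass (log2 fold change -0.07, SE 0.17, edgeR adjusted p = 0.821). The hour at which each tissue was taken is not stated in the labels.

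In some genes diaphragm 2 and 8 stood above dura P5 and above the other diaphragm libraries given here. Acp5, a phosphatase of osteoclasts and activated macrophages, had 55.1, 58 and 56.7 CPM in dura P5, compared with 320 and 374 CPM in diaphragm 2 and 8 (log2 fold change -2.62, SE 0.12, edgeR adjusted p = 3.8e-07), while the other diaphragm libraries held 61.9 and 98.2 CPM in 1 and 7 and 56.2, 106 and 76.7 CPM in 3, 9 and 6. Igkc, the constant part of the antibody kappa chain, had 3.5, 4.48 and 5.31 CPM in dura P5 and 109 and 131 CPM in diaphragm 2 and 8 (log2 fold change -4.73, SE 0.19, edgeR adjusted p = 2.08e-07), and 52.7, 6.67 and 5.48 CPM in diaphragm 3, 9 and 6. Both calls were lost against all 7 diaphragm libraries. Ttr, transthyretin, which choroid plexus and liver make, varied within dura P5 itself, at 24.8, 8.49 and 264 CPM in libraries 1P5, 3P5 and 4P5.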
